A study of Mus musculus with 10 samples.

Results

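Matriptase (St14), hepsin (Hpn), 5 further trypsin-like serine proteases of the cell surface or secreted from liver (Prss8, Tmprss2, Tmprss4, Tmprss6 and Hgfac) and the Kunitz inhibitors Spint1 and Spint2 were followed across sorted mouse liver cells. These 9 genes were taken by name out of 29972 genes in the tables, with earlier results of these data known. All 9 passed the filter for testing, at least 1 TPM, a transcript abundance taken per length and scaled to the same total in every library, in at least 3 libraries, as did 14765 genes in all. St14, Spint1 and Prss8 passed it through the cholangiocyte libraries, since each was under 1 TPM in every hepatocyte library.

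RNA was sequenced in 10 libraries. They comprised 4 from hepatocyte-derived peripheral cholangiocytes (HpC), the duct cells that arise from hepatocytes, 3 from ordinary peripheral cholangiocytes (pC) and 3 from hepatocytes (H). HpC and H came from mice of the genotype Alb-Cre+/-;Rbpjf/f;Hnf6f/f, where an albumin promoter drives Cre recombinase against floxed copies of Rbpj, through which Notch signals reach DNA, and of Hnf6 (Onecut1), a transcription factor of bile duct development. The pC mice, Rbpjf/f;Hnf6f/f, carried the same floxed alleles without Cre, so HpC and pC differed in genotype as well as in origin, while HpC and H shared the genotype. The mice were of a mixed background (C57BL/6, FVB, CD1). HpC1 to HpC4 were taken at postnatal days P124, P151, P144 and P139, pC1 to pC3 at P151, P119 and P142, and H1 to H3 at P134, P139 and P139. The labels do not say whether H2 and H3, which share an age, came from separate animals, nor whether HpC4, of that same age, shared a mouse with either, so p-values against H may in part measure a spread that is technical. All cells were sorted by flow cytometry. HpC and pC came from nonparenchymal cells released by perfusion and by digestion with collagenase, accutase and trypsin, whereas H were sorted after collagenase perfusion alone, and this difference cannot be told apart from the difference between duct cells and hepatocytes.

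Matriptase and hepsin are membrane-anchored serine proteases that cut proteins at or near the cell surface. Their known substrates include the precursors of hepatocyte growth factor (HGF) and macrophage-stimulating protein (MSP) and of prostasin, and the adhesion protein EpCAM. The inhibitors HAI-1 and HAI-2, encoded by Spint1 and Spint2, carry Kunitz domains that block these enzymes, and in epithelia matriptase, prostasin and the inhibitors are known to act together in barrier function. In liver, hepsin and matriptase-2 are known as hepatocyte surface enzymes and HGF activator as a secreted product of hepatocytes.

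The libraries were not equal in composition. Between 10232 and 14489 genes reached 1 TPM, and the number of reads is unknown, so no counting error can be given. HpC1 held pancreatic acinar transcripts, with a summed level of 294000 scaled TPM over 14 markers against at most 1230 in any other library. HpC2 held transcripts of squamous epithelium, 40600 scaled TPM over 13 markers against at most 12.9 elsewhere. Values called scaled TPM were divided by a factor per library, from 0.499 to 1.61, that brings the bulk of genes to a common level. The 10 hepatocyte markers summed to 3130 to 5960 scaled TPM in HpC, 1010 to 2650 in pC and 83200 to 94200 in H, and none was at 0 in any library. The 10 cholangiocyte markers summed to 1950 to 3050 in HpC, 5430 to 5660 in pC and 31.2 to 44.0 in H. The markers thus went with the labels in all 3 groups. In such sorted bulk samples, fewer cells of a type and less RNA per cell cannot be told apart.

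RefSeq windows on GRCm38.p6, the assembly also called mm10, from 250 bases before to 50 after a start site, were found for 5 of the 9 genes: Spint1, Spint2, Hpn, Hgfac and Tmprss2. The windows of both inhibitors are shown because their levels followed different patterns over the same cells, and those of hepsin and HGF activator because both were highest in hepatocytes. Capitals mark matches, on either strand, to motifs searched for: TGGGAA (the core of the RBPJ motif), ATCAAT (the core of the ONECUT motif), GTTAAT (part of the HNF1 motif), CAAAGT (part of the HNF4 motif), AACCGG (a site within the paired grainyhead-like motif), TGTTTAC (the FOXA core), GGAATG (the TEAD core) and GGGCGG (the GC box). Each is printed 5′ to 3′ on the strand of its gene.
Spint1, chr2:119237110-119237409, plus strand: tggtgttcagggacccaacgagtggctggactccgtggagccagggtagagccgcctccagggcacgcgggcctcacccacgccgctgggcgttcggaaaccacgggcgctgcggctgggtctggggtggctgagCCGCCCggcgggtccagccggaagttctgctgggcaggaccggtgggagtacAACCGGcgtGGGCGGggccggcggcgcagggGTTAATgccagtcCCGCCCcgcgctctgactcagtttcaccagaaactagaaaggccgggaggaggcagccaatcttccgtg
Spint2, chr7:29281928-29282227, minus strand: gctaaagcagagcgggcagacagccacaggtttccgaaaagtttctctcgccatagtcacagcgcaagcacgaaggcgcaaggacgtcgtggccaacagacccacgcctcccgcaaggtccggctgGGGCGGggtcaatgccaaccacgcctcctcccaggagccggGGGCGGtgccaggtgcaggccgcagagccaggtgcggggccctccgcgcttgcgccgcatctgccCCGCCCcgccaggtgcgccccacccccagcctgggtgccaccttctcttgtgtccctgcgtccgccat
Hpn, chr7:31115277-31115576, minus strand: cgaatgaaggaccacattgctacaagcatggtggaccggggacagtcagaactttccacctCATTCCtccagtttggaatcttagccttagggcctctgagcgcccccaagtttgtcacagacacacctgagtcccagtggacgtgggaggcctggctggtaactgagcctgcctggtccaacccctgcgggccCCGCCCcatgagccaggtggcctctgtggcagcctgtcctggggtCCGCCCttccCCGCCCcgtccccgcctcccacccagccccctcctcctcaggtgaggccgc
Hgfac, chr5:35041259-35041558, plus strand: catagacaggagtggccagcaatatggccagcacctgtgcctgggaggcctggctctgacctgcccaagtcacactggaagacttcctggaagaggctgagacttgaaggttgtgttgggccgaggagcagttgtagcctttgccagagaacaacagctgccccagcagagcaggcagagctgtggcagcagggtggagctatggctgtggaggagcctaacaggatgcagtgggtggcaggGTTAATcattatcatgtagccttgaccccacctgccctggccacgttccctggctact
The Spint1 window held GTTAAT at position -32 from the start site, AACCGG at -63 and GC boxes at -115, -54 and -19. GTTAAT occurs in 7.1% and AACCGG in 6.83% of all 32851 windows of this length. The Spint2 window held GC boxes alone, at -124, -83 and -18, a motif found in 35.7% of windows. The Hgfac window held GTTAAT at -8, and the Hpn window GC boxes at -56, -11 and -1 and the reverse complement of GGAATG, a motif of 14.7% of windows, at -189. A second RefSeq window of Hpn held only the reverse complement of CAAAGT at -14, a motif present in 14.4% of windows. Tmprss2, not printed, held the reverse complement of TGGGAA at -156 and GGAATG at -100; the first occurs in 25.6% of windows. ATCAAT, in 7.54% of all windows, and TGTTTAC, in 3.65%, were in none of these windows. No match overlapped another. The windows of Spint1 and Spint2 were 69.7% and 69.3% G and C, that of Hpn 64.7% and that of Hgfac 58.3%, beside a median of 52.7% over all windows. A match describes these letters and is not evidence of binding.

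Matriptase and prostasin were duct-cell transcripts, both called higher in HpC and in pC than in H. St14, on chromosome 9 from 31089402 to 31131853 on the minus strand (mm10, as for all genes here), was at 44.4, 52.2, 62.8 and 64.2 scaled TPM across HpC1 to HpC4, at 67.3, 63.2 and 75.0 across pC1 to pC3, and at 0.134, 0.122 and 0.511 in H1 to H3. The H libraries lay far below every cholangiocyte library, and the HpC and pC libraries overlapped. The mean was 55.9 ± 9.35 in HpC (SD, n = 4), 68.5 ± 6.01 in pC (n = 3) and 0.256 ± 0.221 in H (n = 3), and the means of HpC and pC were 219-fold and 268-fold that of H. On the log2(scaled TPM + 1) scale, which understates changes of low values, St14 was higher than in H by 5.50 ± 0.18 in HpC (SE; limma, adjusted p = 2.69e-08) and by 5.80 ± 0.19 in pC (adjusted p = 5.3e-08). Between HpC and pC the difference was -0.30 ± 0.18 (95% interval -0.69 to 0.09, limma adjusted p = 0.419). Gm16071, a pseudogene on the opposite strand within St14, was at 3.77 or less in every library.

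Prss8 encodes prostasin, a serine protease held to the membrane by a lipid anchor and cut by matriptase. It lies on chromosome 7 from 127925716 to 127930104, minus strand, and was at 14.4, 7.46, 11.1 and 10.3 scaled TPM across HpC1 to HpC4, at 15.9, 13.5 and 11.7 across pC1 to pC3 and at 0.297, 0.754 and 0.69 in H1 to H3. Again all H libraries were below all others and the cholangiocyte groups overlapped. The differences from H were 2.89 ± 0.22 in HpC (limma, adjusted p = 1.85e-06) and 3.22 ± 0.23 in pC (adjusted p = 1.42e-06), and between HpC and pC -0.33 ± 0.22 (95% interval -0.82 to 0.15, adjusted p = 0.476). Kat8, a gene on the opposite strand that overlaps Prss8, was at 6.93 to 15.4 scaled TPM in every library. The tables do not state strand, so reads of the pair cannot be fully told apart; Kat8 was highest in H, where Prss8 was lowest.

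Over all 9 genes, 4 were called higher in HpC than in H (St14, Prss8, Spint1 and Spint2), beside 30.7% of all tested genes, and 3 were called lower (Hpn, Tmprss6 and Hgfac), beside 29.2%; these 7 stand beside 59.9% called in either direction. In pC against H the same 4 were called higher, beside 31.1% of all tested genes, and the same 3 lower, beside 28.6%, or 59.6% in either direction. The libraries of those 7 genes did not overlap with H, as held for 60.5% of tested genes in HpC and 70.3% in pC. Tmprss2 and Tmprss4 were called in neither. The 2 comparisons use the same 3 H libraries and are not independent. In HpC against pC none of the 9 was called, beside 4.54% of tested genes (1.99% higher and 2.55% lower), and none had an unadjusted limma p under 0.05. A count of 0 among 9 genes is near that background. Spint2 was the only member whose libraries did not overlap between HpC and pC, as held for 16.5% of tested genes.

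**Figure D1:**
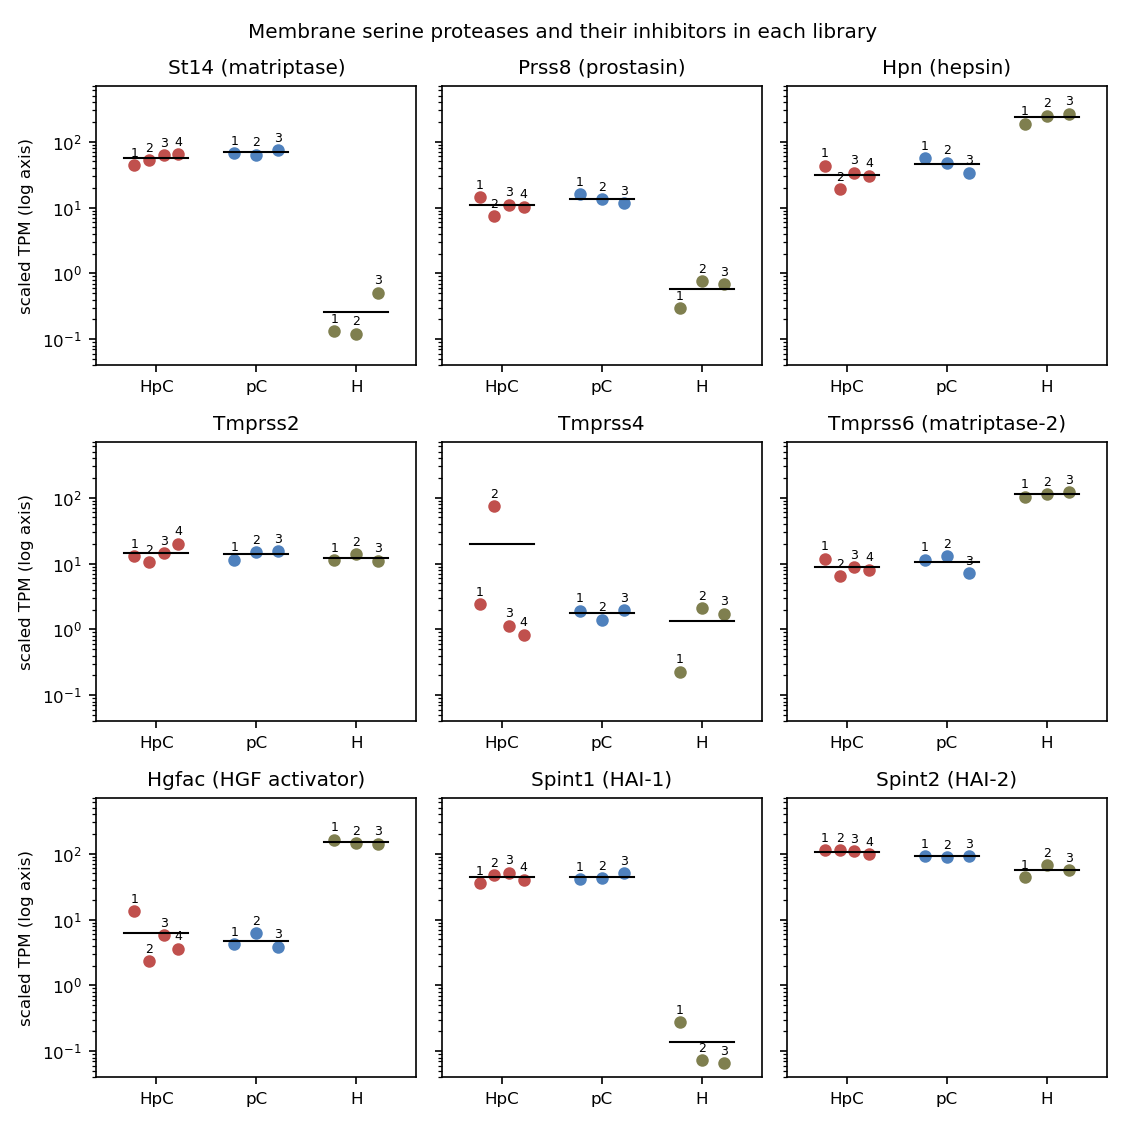
Level of each of the 9 genes in every library, in scaled TPM on a log axis; points are libraries with their replicate number, and lines are group means. St14, Prss8 and Spint1 sit below 1 scaled TPM in all 3 H libraries, Hpn, Tmprss6 and Hgfac are highest in H, and Tmprss4 stands at 74.4 in HpC2 alone.

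Hepsin, matriptase-2 and HGF activator had the reverse order, with the highest levels in hepatocytes. Hpn, on chromosome 7 from 31098725 to 31115290, minus strand, was at 187, 247 and 267 scaled TPM in H1 to H3, at 43.2, 18.9, 34.0 and 30.5 across HpC1 to HpC4 and at 56.6, 48.2 and 34.0 across pC1 to pC3. No cholangiocyte library reached the lowest H library, yet none was near 0. The difference from H was -2.89 ± 0.28 in HpC (limma, adjusted p = 9.36e-06) and -2.33 ± 0.30 in pC (adjusted p = 7.41e-05). With TPM as deposited, before rescaling, the pC difference was -0.78 with an adjusted p of 0.0645, so that call rests on the rescaling between cell types. HpC and pC overlapped and differed by -0.56 ± 0.28 (95% interval -1.18 to 0.06, adjusted p = 0.331).

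Tmprss6 encodes matriptase-2, which cuts hemojuvelin and so lowers hepcidin, the hormone that limits iron uptake. It lies on chromosome 15 from 78439667 to 78468634, minus strand, and was at 103, 112 and 122 scaled TPM in H1 to H3, at 11.8, 6.44, 8.71 and 8.07 across HpC1 to HpC4 and at 11.5, 12.9 and 7.08 across pC1 to pC3. The H libraries stood well above the rest and the cholangiocyte groups overlapped. It was lower than in H by a log2 difference of -3.56 ± 0.23 in HpC (limma, adjusted p = 6.25e-07) and -3.34 ± 0.24 in pC (adjusted p = 1.49e-06), and differed by -0.23 ± 0.23 between HpC and pC (adjusted p = 0.655).

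Hgfac, whose product HGF activator circulates as a zymogen and cuts pro-HGF, lies on chromosome 5 from 35041509 to 35048461, plus strand. It was at 164 scaled TPM in H1, 143 in H2 and just under that in H3 (71.6 and 71.5 TPM as deposited in H2 and H3), at 13.4, 2.32, 5.72 and 3.59 across HpC1 to HpC4 and at 4.24, 6.25 and 3.89 across pC1 to pC3. HpC1 was the highest cholangiocyte library and HpC2 the lowest. Differences from H were -4.60 ± 0.41 in HpC (limma, adjusted p = 5.83e-06) and -4.72 ± 0.44 in pC (adjusted p = 8.24e-06), and HpC and pC differed by 0.12 ± 0.41 (95% interval -0.80 to 1.04, adjusted p = 0.909), a difference that turned to -0.29 without HpC1.

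Because sorted duct cells can carry hepatocyte RNA, the hepatocyte-high genes were set beside 10 hepatocyte markers, each as a percentage of its own mean in H. Hpn stood at 18.5%, 8.1%, 14.5% and 13.1% across HpC1 to HpC4 and at 24.2%, 20.6% and 14.6% across pC1 to pC3. The median of the hepatocyte markers was 5.39%, 2.35%, 2.5% and 0.663% in HpC and 1.62%, 1.46% and 0.392% in pC. Hpn was above that median in all 7 cholangiocyte libraries. Hnf4a, a transcription factor of hepatocyte identity, had the highest marker percentage in each of them, from 13.9% to 24.6% in HpC and from 11.5% to 16.2% in pC. Tmprss6 was at 5.73% to 10.5% in HpC and 6.3% to 11.5% in pC, above the marker median in each library as well. Hgfac, at 1.55% to 8.94% in HpC and 2.6% to 4.17% in pC, was above the median in all but HpC2. The part of carried-over hepatocyte RNA in these levels was not tested. In the other direction, St14 in H was 0.178% to 0.746% of its pC mean, Spint1 0.149% to 0.624% and Prss8 2.17% to 5.51%. As a share of the pC mean, the H mean of the cholangiocyte markers Krt19, Epcam and Sox9 was 0.0624%, 0.139% and 2.32%.

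**Figure D2:**
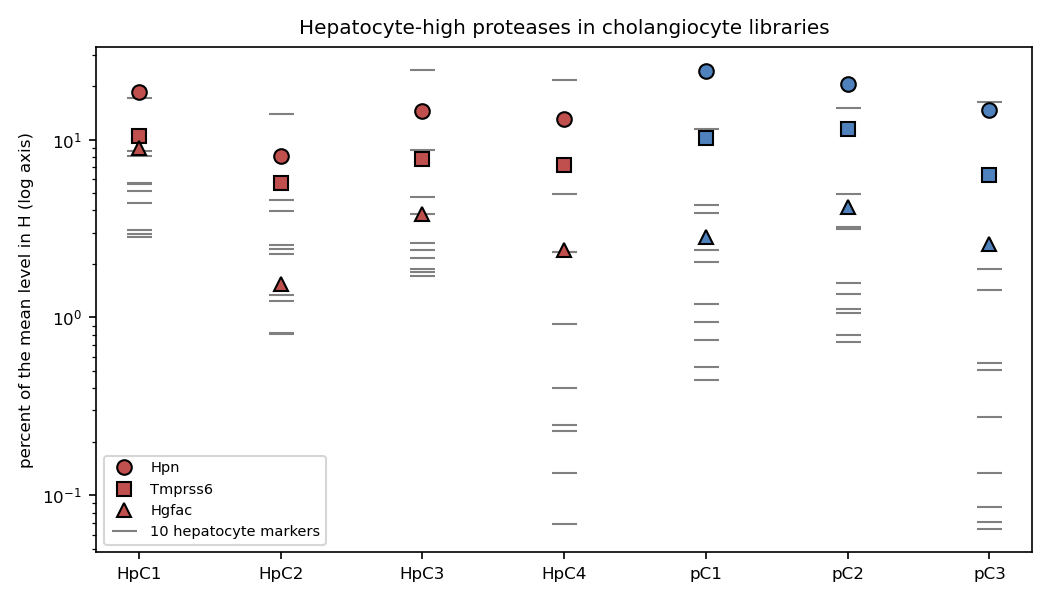
Hpn, Tmprss6 and Hgfac (symbols) and the 10 hepatocyte markers (grey lines) in each cholangiocyte library, as a percentage of their mean level in H on a log axis. Hpn is above the median marker in every library, from 8.1% in HpC2 to 24.2% in pC1.

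Tmprss2 and Tmprss4 were called in no comparison. Tmprss2, a transmembrane protease of many epithelia known for cutting the surface proteins of respiratory viruses, lies on chromosome 16 from 97564682 to 97611195, minus strand. It was at 12.8, 10.5, 14.3 and 20 scaled TPM across HpC1 to HpC4, at 11.5, 14.9 and 15.4 across pC1 to pC3 and at 11.2, 13.9 and 11 in H1 to H3. The 3 groups overlapped. The difference from H was 0.21 in HpC (95% interval -0.26 to 0.68, limma adjusted p = 0.406) and 0.19 in pC (95% interval -0.31 to 0.70, adjusted p = 0.483). It became a call with TPM as deposited, at 1.24 in HpC (adjusted p = 0.013) and 1.62 in pC (adjusted p = 0.00333), and at 0.58 in HpC when HpC1 and HpC2 were left out (adjusted p = 0.0359).

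Tmprss4, a transmembrane protease of gut and other epithelia, lies on chromosome 9 from 45172726 to 45204092, minus strand. It was at 2.41, 74.4, 1.14 and 0.835 scaled TPM across HpC1 to HpC4, at 1.93, 1.40 and 1.95 across pC1 to pC3 and at 0.227, 2.12 and 1.73 in H1 to H3. HpC2, the library with the squamous markers, stood alone, and the part of such cells in it was not tested. Of 85.7 deposited TPM of Tmprss4 in HpC2, 4.85 fell on the only protein-coding transcript, Tmprss4-201, and 46.6 on the processed transcript Tmprss4-202. Gm17099, annotated antisense to Tmprss4, was at 40.7 scaled TPM in HpC2 and at most 1.07 elsewhere, and reads of the pair cannot be told apart without strand. The difference between HpC and pC was 1.04 ± 1.10 (limma, adjusted p = 0.673) and turned to -0.19 without HpC2.

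The Kunitz inhibitors differed from each other in hepatocytes: Spint1 was near 0 there and Spint2 was not. Spint1 encodes HAI-1, the membrane-bound inhibitor of matriptase, hepsin, prostasin and HGF activator, and lies on chromosome 2 from 119237362 to 119249527, plus strand. It was at 35.5, 46.9, 51.2 and 40.4 scaled TPM across HpC1 to HpC4, at 41.0, 42.4 and 50.7 across pC1 to pC3, and at 0.279, 0.0728 and 0.0665 in H1 to H3. As with St14, every H library was far below every cholangiocyte library. The mean was 43.5 ± 6.94 in HpC (SD, n = 4), 44.7 ± 5.25 in pC (n = 3) and 0.139 ± 0.121 in H (n = 3), and Spint1 exceeded H by 5.28 ± 0.16 in HpC (limma, adjusted p = 2.69e-08) and 5.32 ± 0.17 in pC (adjusted p = 5.3e-08). Between HpC and pC the difference was -0.04 ± 0.16, with a 95% interval of -0.41 to 0.32 (adjusted p = 0.914).

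Spint2 encodes HAI-2, which blocks prostasin and matriptase and is needed in mouse development and gut epithelium. It lies on chromosome 7 from 29256323 to 29281912, minus strand, and was at 112, 112, 108 and 98.2 scaled TPM across HpC1 to HpC4, at 92.5, 88.1 and 91.2 across pC1 to pC3, and at 44.4, 67.5 and 56.7 in H1 to H3. All 3 groups were apart, with HpC highest and H lowest, but H kept a substantial level. The excess over H was 0.94 ± 0.15 in HpC (limma, adjusted p = 0.000402) and 0.70 ± 0.16 in pC (adjusted p = 0.00416), or 1.91-fold and 1.61-fold in mean level. HpC exceeded pC by 0.24 ± 0.15, a difference that did not pass (95% interval -0.10 to 0.59, adjusted p = 0.456) and that turned to -0.18 with TPM as deposited.

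**Figure D3:**
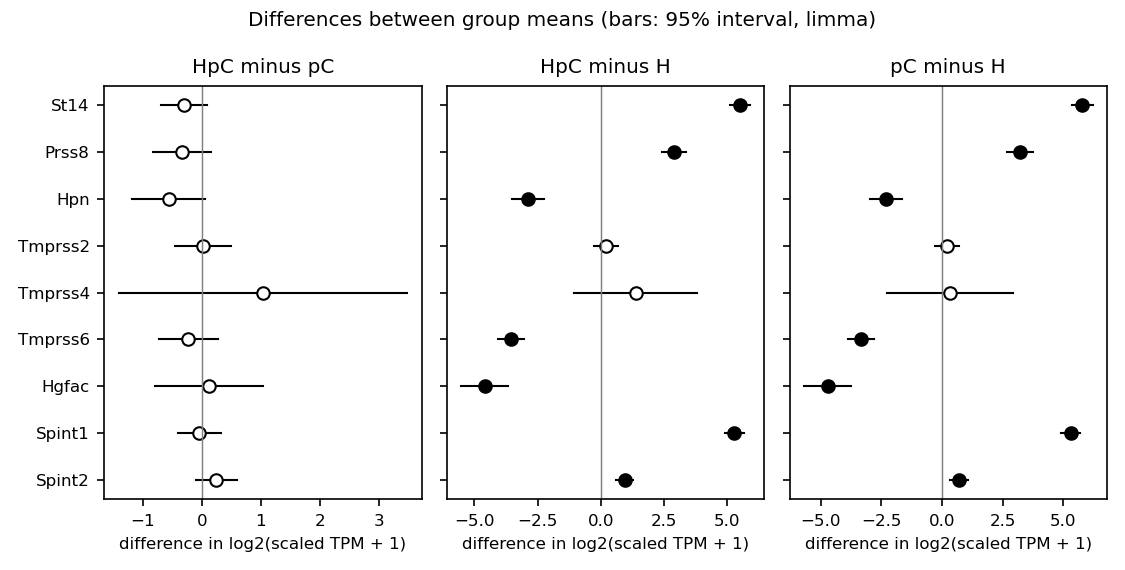
Difference between group means for each gene in log2(scaled TPM + 1), with 95% limma intervals, for HpC minus pC, HpC minus H and pC minus H; filled points passed the 5% threshold over all 14765 tested genes and open points did not. No point is filled in HpC minus pC, and the interval of Tmprss4 runs from -1.41 to 3.48 there.

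By level, which TPM allows between genes since it is taken per transcript length, Spint2 was the highest of the 9 in each cholangiocyte library. Below it, St14 came next in mean level in both groups, at 55.9 ± 9.35 in HpC and 68.5 ± 6.01 in pC. Spint1 (43.5 ± 6.94) and Hpn (31.7 ± 10) followed in HpC, while in pC Hpn (46.3 ± 11.4) and Spint1 (44.7 ± 5.25) lay within each other's spread. Tmprss2, Prss8, Tmprss6 and Hgfac had means between 4.8 and 14.4 in both groups, Tmprss4 had 1.76 ± 0.312 in pC and a mean of 19.7 ± 36.5 in HpC set by HpC2, and those of Tmprss2 and Prss8 in pC, 13.9 ± 2.11 and 13.7 ± 2.14, lay within each other's spread. In H the order was Hpn (234 ± 41.3), Hgfac (150 ± 12.4), Tmprss6 (112 ± 9.29), Spint2 (56.2 ± 11.5) and Tmprss2 (12.0 ± 1.63). The other 4 genes were at 1.36 or less in mean level.

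As shares of the summed TPM of the 7 proteases, St14 made up 30.3% to 46.7% in HpC and 39.4% to 50.4% in pC, and 0.0235% to 0.0939% in H. Hpn made up 11% to 30.3% in HpC, 22.8% to 33.5% in pC and 40.2% to 49.0% in H. In H the remainder was mostly Hgfac, at 26.1% to 35.2%, and Tmprss6, at 21.5% to 22.4%. Tmprss4 took 43.2% in HpC2 and at most 1.69% in every other library. Spint1 made up 24.1% to 32.2% of both inhibitors together in HpC, 30.7% to 35.7% in pC and 0.108% to 0.624% in H, where nearly all inhibitor transcript was Spint2.

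Ratios within a library need no rescaling. The log2 ratio of St14 to Spint1 and Spint2 together was -1.73, -1.61, -1.34 and -1.11 across HpC1 to HpC4, -0.99, -1.05 and -0.92 across pC1 to pC3, and -8.39, -9.11 and -6.79 in H1 to H3. The HpC and pC libraries did not overlap in this ratio, the only one given here where that held. In level, 16.5% of tested genes did not overlap between HpC and pC, and no such share was computed for ratios. Among the cholangiocyte libraries, the lowest values of this ratio were in HpC1 and HpC2, which held acinar and squamous transcripts. The part of those cells in the ratio was not tested. In linear terms there were 0.301 to 0.463 St14 transcripts per inhibitor transcript in HpC and 0.484 to 0.529 in pC. The difference of the means was -0.46 with all libraries and -0.24 without HpC1 and HpC2. The log2 ratio of Hpn to both inhibitors was -1.77, -3.07, -2.23 and -2.18 in HpC, -1.24, -1.44 and -2.06 in pC, and 2.07, 1.87 and 2.23 in H. Hepsin transcripts thus outnumbered inhibitor transcripts 3.66 to 4.7 times in H and were fewer in every cholangiocyte library. Spint1 to Spint2 had mean log2 ratios of -1.32 ± 0.24 in HpC, -1.03 ± 0.17 in pC and -8.97 ± 1.43 in H. St14 to Prss8 stood at 2.39 ± 0.53, 2.33 ± 0.32 and -1.40 ± 1.12. Ratios that hold St14, Spint1 or Prss8 in H rest on values under 1 TPM. Transcript ratios do not give ratios of protein or of activity.

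**Figure D4:**
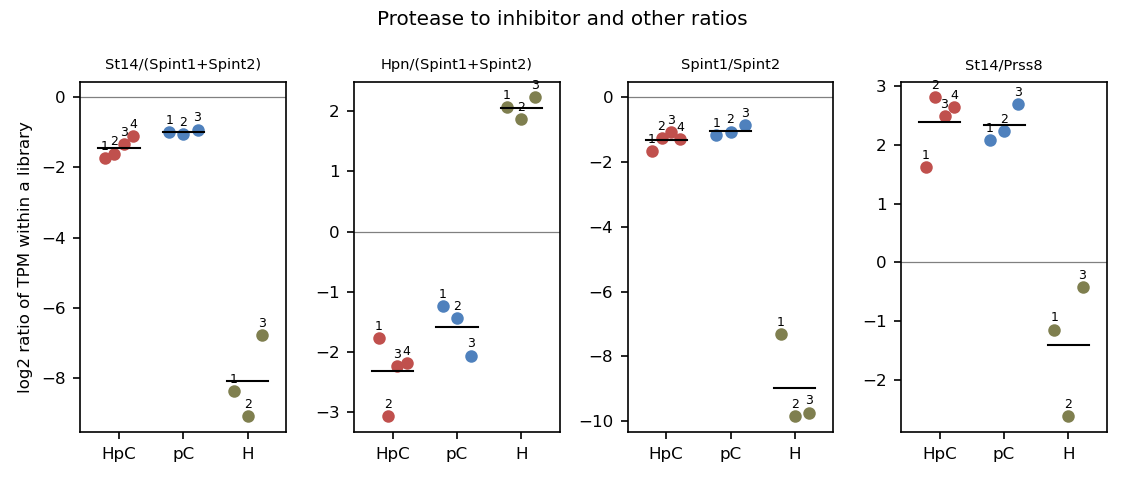
Log2 ratios of TPM within each library, with replicate numbers and group means as lines, for St14 and Hpn over both inhibitors, Spint1 over Spint2 and St14 over Prss8. For St14 over both inhibitors the 4 HpC libraries, at -1.73 to -1.11, sit below the 3 pC libraries, at -1.05 to -0.92. In the other ratios HpC and pC overlap.

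In HpC and pC, most of the TPM of each gene other than Tmprss4 was in protein-coding transcripts. For Tmprss4 that share was 0% to 51.9% in HpC, 4.68% to 25.9% in pC and 0% in H. St14-201, the only protein-coding transcript of 4 annotated for St14, held 70.7% to 80.6% of the gene's TPM in HpC and 73% to 79.9% in pC; the retained-intron transcript St14-203 held 15.0% to 24.1% and 16.9% to 20.7%. Spint2-202 held 90.9% to 95% of Spint2 in HpC and 93.0% to 93.7% in pC. Spint1-202 led Spint1, with 53.0% to 69.6% in HpC and 49.1% to 73.1% in pC. Hpn-202 led Hpn in every group, with 48.5% to 81.7% in HpC, 59.8% to 64.6% in pC and 49.4% to 54.0% in H, so hepatocytes and duct cells showed the same leading transcript. Prss8, Tmprss2, Tmprss6 and Hgfac have 1 transcript each in the tables. Shares between overlapping transcripts are estimates from short single-end reads.

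The ligands, receptors and activators through which these proteases are known to act were taken as a list of 11 genes, of which 10 were tested. Met, the HGF receptor, was at 42.5, 40.5, 63.1 and 79 scaled TPM in HpC, 50.4, 43.3 and 61.7 in pC and 35.3, 52.9 and 44.6 in H, with all groups overlapping. It differed by 0.08 ± 0.25 between HpC and pC (limma, adjusted p = 0.902). Against H, Met was not called, at 0.31 ± 0.25 in HpC (adjusted p = 0.322) and 0.23 ± 0.27 in pC (adjusted p = 0.495). With TPM as deposited it was called, at 1.41 in HpC (adjusted p = 0.0123) and 1.75 in pC (adjusted p = 0.00424). Without HpC1 and HpC2 it was called in HpC, at 0.81 (adjusted p = 0.0129). Hgf itself, made mainly by liver mesenchymal cells, was at 1.62 ± 1.15 in HpC and 0.629 ± 0.209 in pC (adjusted p = 0.428) and at 0.0766 ± 0.069 in H. It was called higher in HpC than in H (1.16 ± 0.34, limma, adjusted p = 0.0134) and not in pC (0.59 ± 0.36, adjusted p = 0.185). In pC it passed with a pseudocount of 0.1 (adjusted p = 0.0361) and with TPM as deposited (0.0435). It also passed there without HpC1 and HpC2 (0.0399) and with array weights (0.0333). The stellate and fibroblast markers, from the cells that make HGF, summed to 39.1 to 113 scaled TPM in HpC, 55.0 to 68.7 in pC and 2.51 to 3.75 in H, and none was at 0 in HpC or pC; their part was not tested. Mst1, which encodes MSP, was, like the hepatocyte proteases, highest in H, at 137 ± 13.1 in H, 4.46 ± 1.86 in HpC and 1.83 ± 1.19 in pC, and was called lower than in H in both (-4.73 ± 0.35 and -5.69 ± 0.37). Its receptor gene Mst1r was at 1.17, 5.22, 0.995 and 0.75 in HpC, at most 0.322 in pC and at most 0.0544 in H. HpC and pC did not overlap, but the difference of 1.11 ± 0.38 did not pass (limma, adjusted p = 0.152).

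Plasminogen activators were the members of that list called between the cholangiocyte groups. Plau, the urokinase gene, whose product also cuts pro-HGF, was at 6.93, 12.8, 20.3 and 9.54 scaled TPM in HpC, 1.03, 0.602 and 2.39 in pC and 0.263, 0.301 and 0.0613 in H. Plat, the tissue plasminogen activator gene, was at 11.1, 10.5, 19.9 and 14.0 in HpC and 0.604, 0.622 and 1.35 in pC. Every HpC library exceeded every pC library for both. The same held for the fibroblast markers Col1a1 (4.23 to 11.7 against 1.16 to 2.7), Col3a1 and Dcn. It also held for the mesothelial markers Msln (14.7 to 32.8 against 3.44 to 11.6), Wt1 and Upk1b. Rgs5 and Gpm6a of these marker lists were lower in every HpC library, and their other markers overlapped. The part of such cells in Plau and Plat was not tested. Plau rose by 2.49 ± 0.34 (limma, adjusted p = 0.00343) and Plat by 2.98 ± 0.23 (adjusted p = 0.000212), and both passed without any single library and without HpC1 and HpC2. These 2 of 10 were the only calls of the list in HpC against pC, beside 4.54% of all tested genes in either direction and 1.99% higher. The median difference of the list was 1.04, beside -0.01 over all tested genes. It lay between the differences of Mst1 (0.96) and Mst1r (1.11), neither of which was called. Against H, 5 of 10 were called higher and 4 lower in HpC, beside 30.7% and 29.2% of all tested genes, and 2 higher and 4 lower in pC, beside 31.1% and 28.6%. Plaur, the urokinase receptor, was at 196 ± 85.0 in HpC, 137 ± 54.4 in pC and 0.162 ± 0.197 in H, while Plg (plasminogen) and F12 (factor XII, another activator of pro-HGF), at 1620 ± 180 and 270 ± 25.8 in H, were at 25.7 ± 19.5 and 4.78 ± 3.07 in HpC and 9.8 ± 6.92 and 1.35 ± 0.894 in pC. F12 was not called between HpC and pC (limma, adjusted p = 0.328), although it passed without HpC4 (adjusted p = 0.0142). HpC4 had the lowest F12 of the HpC libraries, at 0.475 scaled TPM. Its median hepatocyte marker was also the lowest of them, at 0.663% of H against 2.35% to 5.39%. Plg, F12 and Mst1, all highest in H, differed by 1.30, 1.12 and 0.96 between HpC and pC, none called. The part of hepatocyte RNA in these differences was not tested.

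**Figure D5:**
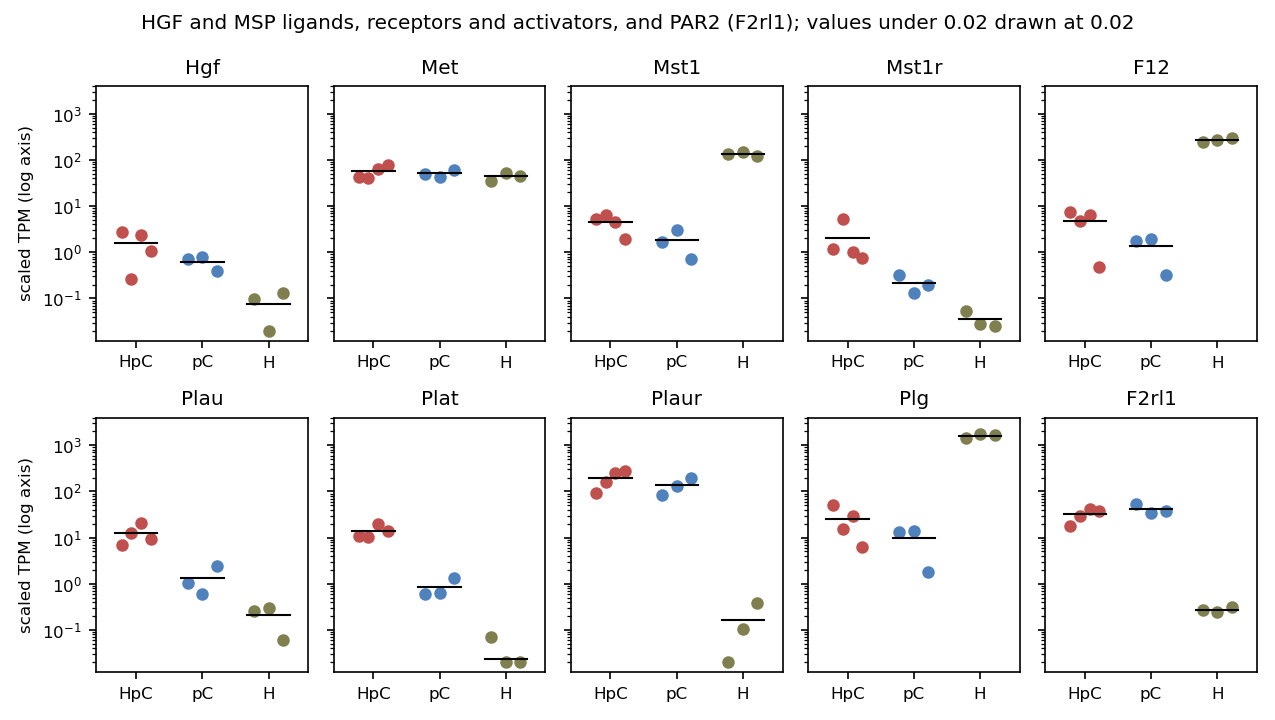
Scaled TPM on a log axis in every library for ligands, receptors and activators of the HGF and MSP system and for F2rl1; points are libraries, lines are group means, and values under 0.02 are drawn at 0.02. Plau and Plat are higher in all 4 HpC libraries than in all 3 pC libraries, Met overlaps across the 3 groups, and Mst1, F12 and Plg are highest in H.

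Of 14 substrates of the membrane proteases, 12 were tested. Against H, 8 were called higher and 2 lower in HpC, beside 30.7% and 29.2% of all tested genes, and 8 higher and 2 lower in pC, beside 31.1% and 28.6%. The median differences were 3.24 and 2.72, beside 0.08 and 0.11 over all tested genes. Epcam, the adhesion protein cut by matriptase, was at 145 ± 34.9 in HpC, 147 ± 6.45 in pC and 0.204 ± 0.203 in H, and its partner Cldn7 (claudin-7) at 71.4 ± 24.8, 91.7 ± 8.34 and 0.147 ± 0.13. F2rl1, which encodes the protease-activated receptor PAR2, was at 17.9, 29.0, 42.4 and 37.7 scaled TPM in HpC, 53.5, 33.6 and 37.5 in pC and 0.268, 0.244 and 0.312 in H. These 3 were called higher than H in both groups and in neither direction between HpC and pC, where the limma adjusted p-values were 0.921, 0.425 and 0.479. Lama5, a laminin chain gene, was at 86.5 ± 26.3, 58.4 ± 7.76 and 0.213 ± 0.123. Scnn1b, a subunit gene of the sodium channel that prostasin activates, was the only call of the 12 between HpC and pC, beside 4.54% of all tested genes. It was at 1.94 ± 0.582 against 0.635 ± 0.264 (0.83 ± 0.20, limma, adjusted p = 0.0480) and was listed at 0 in all H libraries. It lost its call in 9 of 10 fits that left out a library.

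Of 17 genes around matriptase-2 and hepcidin, 16 were tested, and 8 were called higher and 5 lower in HpC than in H, beside 30.7% and 29.2% of all tested genes. In pC 9 were higher and 5 lower, beside 31.1% and 28.6%. The 4 with the largest differences were all lower than in H. Fgl1, a hepatokine that restrains BMP ligands, was at 675 ± 131 in H against 3.92 ± 3.31 in HpC and 3.1 ± 2.37 in pC. Hamp, the hepcidin gene, was at 2760, 1590 and 1160 scaled TPM in H, at 51.1, 33.3, 65.6 and 6.23 in HpC and at 99.4, 22.4 and 12.9 in pC; its near copy Hamp2 may share reads with it. Tfr2, a transferrin sensor, was at 98.6 ± 1.53 in H and 1.54 ± 1.06 and 0.62 ± 0.348 in the cholangiocyte groups, and Hjv, the hemojuvelin cut by matriptase-2, at 32.7 ± 2.8, 0.592 ± 0.501 and 0.335 ± 0.256. All 4 were called lower in HpC and in pC than in H. As a share of their H means these were below the Tmprss6 percentages given above. Between HpC and pC only Id1, a target gene of BMP signalling, was called of the 16, beside 4.54% of all tested genes. It was at 12.2 ± 3.25 against 49.0 ± 23.0 (-1.83 ± 0.33, limma, adjusted p = 0.0125). The call was lost without pC1 (adjusted p = 0.0518) or pC2 (0.0699).

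Of 16 other Kunitz-domain genes 8 were tested, and 3 were called lower in HpC than in pC, beside 2.55% of all tested genes. Ambp, which encodes the bikunin precursor and is made by hepatocytes, was at 661, 467, 749 and 529 scaled TPM in HpC, 1290, 1200 and 1010 in pC and 4370, 4730 and 4900 in H (HpC against pC -0.97 ± 0.20, limma, adjusted p = 0.0226). App, the amyloid precursor gene, was at 242 ± 32.2 in HpC, 450 ± 48.6 in pC and 57.4 ± 6.63 in H (-0.90 ± 0.16, adjusted p = 0.0116), and its relative Aplp2 at 129 ± 19.3, 217 ± 12.8 and 194 ± 36.9 (-0.75 ± 0.18, adjusted p = 0.0425). The groups HpC and pC did not overlap for any of the 3. Without pC1 the adjusted p was 0.107 for Ambp and 0.0582 for App, and without HpC1 and HpC2 it was 0.0592 and 0.053. Aplp2 lost its call in 8 of 10 fits that left out a library. Tfpi, tissue factor pathway inhibitor, was at 67.0, 66.7, 3.31 and 62.2 in HpC and 4.47, 9.59 and 3.74 in pC, with HpC3 among the pC values (2.36 ± 0.87, adjusted p = 0.186).

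Serpins form the other inhibitor family of such proteases. Of 13 listed, 10 were tested, and 4 were called higher in HpC than in pC, beside 1.99% of all tested genes. Of these, 3 are hepatocyte secretory genes: Serpina1a (2.45 on the log2 scale, adjusted p = 0.0165), Serpina1b (2.18, adjusted p = 0.00801) and Serpind1 (2.13, adjusted p = 0.017). Serpina1a lost its call without HpC1 and HpC2 (adjusted p = 0.0924) and Serpind1 without pC2 (0.0707), and the Serpina1 values are uncertain since near-identical copies share reads. The hepatocyte marker sum was also higher in HpC, at 3130 to 5960 against 1010 to 2650 in pC, but Alb made up most of it. The median marker, as a percentage of H, was 5.39%, 2.35%, 2.5% and 0.663% across HpC1 to HpC4. In pC1 to pC3 it was 1.62%, 1.46% and 0.392%, so HpC4 lay below pC1 and pC2. The part of hepatocyte RNA in these 3 genes was not tested, and Serpina1a is itself among those markers. Against H, 8 of 10 serpins were called lower in HpC, beside 29.2% of all tested genes, and 8 of 10 in pC, beside 28.6%.

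Of 11 further membrane-anchored or tryptic serine proteases 5 were tested. Prss22, at 1.07 ± 0.429 in HpC and 0.151 ± 0.0867 in pC, was the only call between these groups (0.82, limma, adjusted p = 0.0465), beside 4.54% of all tested genes, and the call was lost in 6 of 7 fits that left out a library and still tested it. Against H, Htra1 (1.92 ± 0.18 in HpC, 1.41 ± 0.20 in pC) and Prss23 (1.08 ± 0.24 and 1.62 ± 0.25) were called higher in both, from levels of 0.172 ± 0.225 and 0.0137 ± 0.0238 in H. None of the 14 other type II transmembrane serine proteases passed the filter.

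Of 19 regulators of duct and hepatocyte fate, transcription factors and the splicing regulators Esrp1 and Esrp2, all were tested. Against H, 10 were called higher and 8 lower in HpC, beside 30.7% and 29.2% of all tested genes, and 9 higher and 5 lower in pC, beside 31.1% and 28.6%. Grhl2, a grainyhead-like factor of epithelial barriers, was at 16.6, 42.4, 28.2 and 31.2 scaled TPM in HpC, 47.7, 45.2 and 43.0 in pC and 0, 0.349 and 0.483 in H, a difference from H of 4.53 ± 0.27 and 5.20 ± 0.29 (limma, adjusted p = 4.4e-07 and 3e-07). Klf5, Ehf and Sox9 were likewise higher in both cholangiocyte groups than in H. Against pC, 2 were called lower in HpC, beside 2.55% of all tested genes, among them Prox1, at 26.3 ± 8.28 against 92.7 ± 24.4 (-1.81 ± 0.27, adjusted p = 0.00525).

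The genes most like the members over the 10 libraries were sought by Pearson correlation of log2(scaled TPM + 1) among 2094 or 2095 other well-expressed protein-coding genes. St14 was most like Epcam (r = 0.999), Bicc1 (0.998) and Mprip (0.996), and Spint1 like Epcam, Hnrnpa1 and Krt19 (each 0.997). Spint2 had looser neighbours, Vasp (0.981), Cdk4 (0.972) and S100a11 (0.963). Hpn was most like Gstt1 (0.995), Proc (0.995) and Slc25a23 (0.990), and Tmprss6 like Vkorc1 (0.998), Gstz1 (0.998) and Mpc2 (0.997). These correlations describe 10 libraries that fall into hepatocytes and cholangiocytes and mostly restate that division.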

How the data were processed

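Expression was measured by single-end RNA sequencing of 10 sorted-cell libraries prepared for low RNA input, per the labels. The authors deposited 1 table per library of TPM for 85276 Ensembl transcripts, summing to 1000000 in each, so read depth is unknown and no count test could be run. The submitters' processing notes name kallisto, DESeq and mm10, without versions or roles. Through the GENCODE annotation of mm10, 81927 transcripts were joined to 29972 genes; the 3349 unmatched transcripts, 4.22% to 9.06% of a library's TPM, were left out, and TPM was summed per gene. Genes at 1 TPM or more in at least 3 libraries were tested (14765). TPM was rescaled between libraries by an unweighted trimmed mean of log ratios (30% of ratios and 5% of levels trimmed at each end). Group means of log2(scaled TPM + 1) were compared in a single fit of all libraries by limma 3.58.1 (R 4.3.3; trend option) and Benjamini-Hochberg adjustment over all tested genes at 5%. The scripts were tested on simulated data with planted changes between HpC and pC, which did not cover the comparisons with H. Tables and figures used Python 3.11.15, pandas 2.3.3 and matplotlib 3.10.9. The 9 genes and all lists were chosen with earlier results of these data known. Named besides the 9 genes are up to 4 called genes of each list and comparison with the largest differences, 11 genes of the HGF, substrate and hepcidin lists taken by name, and 3 like genes for each of 5 members; untested proteases in the closing section were named after their values were seen. Some genes that this rule names are not reported here. Alternatives were another rescaling or none, another pseudocount, other filters, coding transcripts alone, libraries left out, array weights, a replicate block and fits of 2 groups.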

Additional observations from a re-analysis of the deposited data

Results flagged for a closer look

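Within the 4 HpC libraries, 52 values were examined for a library far from the other 3, and 3 stood out by Dixon's 95% criterion, which chance meets in about 1 of 20 such groups. Tmprss4 was at 74.4 scaled TPM in HpC2 against 0.835 to 2.41 in the other HpC libraries. Mst1r, the MSP receptor gene, was at 5.22 in HpC2 against 0.75 to 1.17. HpC2 is the library whose 13 squamous epithelium markers summed to 40600 scaled TPM, with none at 0; the part of such cells in both values was not tested. Tfpi was at 3.31 in HpC3 against 62.2 to 67.0 in the other 3, and all pC libraries were at 3.74 to 9.59.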

How the results depend on the processing

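The number of the 9 genes called was 0 in HpC against pC in every alternative run, and 7 in each comparison with H except with TPM as deposited, where 5 were higher and 3 lower in HpC and 5 higher and 2 lower in pC, and without HpC1 and HpC2, where 8 were called in HpC with Tmprss2 added (0.58, adjusted p = 0.0359). Without rescaling, the median difference of all genes was -0.36 in HpC against pC, 0.87 in HpC against H and 1.20 in pC against H, and 26.1%, 83.3% and 88.2% of calls were higher, against 43.8%, 51.2% and 52.1% after rescaling. In that setting the HpC minus pC differences turned to -0.38 for Tmprss2, -0.27 for Hgfac, -0.18 for Spint2 and -0.34 for Met. Without HpC1 and HpC2 they turned to -0.46 for Tmprss4, -0.01 for Hgfac, 0.07 for Spint1, 0.01 for F2rl1, 0.26 for Epcam, 0.05 for Cldn7 and -0.01 for Hjv, and Tmprss4 in HpC against H to -0.08. With array weights, Spint1 turned to 0.12, Epcam to 0.17 and Hamp to 0.36. Genes called in HpC against pC numbered 671, but 1797 with array weights and 393 with only the 2 groups; list genes called were 14, but 25 and 7.

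Leaving out a library moved these counts over 271 to 794 and 6 to 16. In the same fits differences that changed sign in HpC against pC ranged from -0.12 to 0.05 for Spint1, -0.14 to 0.18 for Tmprss2, -0.19 to 1.57 for Tmprss4, -0.29 to 0.44 for Hgfac, -0.16 to 0.11 for Epcam, -0.10 to 0.25 for Met, -0.67 to 0.75 for Hamp and -0.08 to 0.32 for the ratio of St14 to Prss8; Tmprss4 in pC against H ranged from -0.10 to 0.61. With 1 added to TPM, ratio differences from H were 3.35 (HpC) and 3.81 (pC) for St14 to both inhibitors, 3.51 and 3.8 for Spint1 to Spint2, and 2.50 and 2.48 for St14 to Prss8. The cause of these shifts was not tested.

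Same-numbered libraries did not deviate together (correlations -0.0458 to 0.0839), and the main fit used no pairing by number. With so few libraries, this check cannot show whether any share an animal or a sorting day. With a replicate block, 573, 8184 and 8697 genes were called, 0, 7 and 7 of them members; Tmprss2 turned to -0.14, Met to -0.10 and Hamp to 0.62 in HpC against pC. Of the genes named, the block added calls in HpC against pC for Mst1 (limma, adjusted p = 0.0291) and F12 (0.0379), and ended those of Scnn1b (0.0881), Prss22 (0.112), Ambp (0.0811) and Aplp2 (0.0752).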

Other observations

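Several proteases related to the members were high in a single library and, apart from Klk1, did not pass the filter for testing. HpC2 held Tmprss13 and Tmprss11b at 10.6 scaled TPM each, Tmprss11d at 3.84, Tmprss11g at 2.57, Tmprss11e at 2.47 and Tmprss11a at 2.40, transmembrane proteases that in any other library were at 0.615 or less. It also held the kallikrein genes Klk10 at 41.8 and Klk11 at 30.7, which were at most 0.107 elsewhere. HpC1, with the pancreatic acinar transcripts, held Klk1, the tissue kallikrein gene, at 6460, with 21.1 in pC3 and at most 5.19 in the rest; it was not called in HpC against pC (2.21, limma, adjusted p = 0.703). Untested too, Corin, the protease that activates natriuretic peptide precursors, was at 1.20, 7.22 and 5.01 in H1 to H3 and at most 0.609 in any cholangiocyte library.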
